A study of Rattus norvegicus with 13 samples.

Results

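Kinesins, dyneins and tubulins are the motors and the tracks of transport along the axon, and their transcripts were followed in rat frontal cortex 1 month after experimental head trauma. Male Sprague–Dawley rats had either rotational trauma, in which the head is accelerated and turned, or lateral fluid percussion, in which a fluid pulse strikes the exposed dura, and each model had its own sham rats, which were anaesthetised and operated on but not injured. The groups were rotational trauma (3 arrays) and rotational sham (3 arrays), then percussion trauma (3 arrays) and percussion sham (4 arrays), with 1 single-colour Agilent array for each sample. No genetic change, drug or cell sorting is named in the labels, and the age of the rats is not given in them. The members were all probes whose name on the array begins with Kif or Klc and a digit, or with Dync, Dynl, Dctn, Tuba or Tubb, which gave 89 probes for 70 genes. Of these genes 54 had a probe whose signal was well above background on all arrays of 1 or more groups, among 17244 such genes in all, and each gene is described by its probe of highest mean signal.

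Kinesins are motor proteins that walk mostly towards the growing ends of microtubules and so carry vesicles, mitochondria and newly made proteins from the nerve cell body out into the axon. Cytoplasmic dynein, working with its cofactor dynactin, moves cargo the other way, and both run on microtubules built from pairs of alpha and beta tubulin. Axons stretched or sheared by trauma are known for broken microtubules and for swellings in which transported cargo collects. Transcript levels were those of a piece of cortex as a whole, and neither transport itself nor protein was measured. In tissue RNA of this kind, fewer cells of a type and less RNA per cell cannot be told apart.

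The 54 measured genes were 22 of 36 kinesins and kinesin light chains, all 13 dynein subunits, 5 of 6 dynactin subunits, 7 of 8 alpha tubulins and 7 of 7 beta tubulins. On all 13 arrays 50 of them were above background. The 16 others by name were not well above background on every array of any group and are not reported with values: Dctn3, Kif11, Kif12, Kif18a, Kif20b, Kif21b, Kif24, Kif26b, Kif2b, Kif2c, Kif4a, Kif4b, Kif6, Kif7, Klc3 and Tubal3. Several of these, such as Kif11 and Kif2c, are motors of the mitotic spindle. No probe carries the name Kif1a, Kif17 or Klc2, so these genes are not analysed here. Neuronal markers were present in every group: 11 of 11 listed genes, among them Snap25 and Syt1, were above background on all arrays.

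The probes that the results turn on are shown here by their middle 30 bases, bases 16 to 45 of a 60-base probe, 5′ to 3′, since each value is the signal of this 1 sequence and not of a whole gene. Coordinates are of the whole probe on the rn4 build, as the array files have them, and whether a probe lies in coding or untranslated sequence was not analysed here.
Tubb6, chr18:63928978-63929037, plus strand: gggaagaggcttttgaagatgaggatgaag
Kif5c, chr3:30739644-30739703, plus strand: caaggccttggagagtgcgctcaaagaggc
Kif1c, chr10:57622259-57622318, plus strand: gtttgactttctttttgagtggatgcaacg
Kif15, chr8:127764108-127764167, plus strand: acctacatcagaagattcaatatgtagtgc
Dctn4, chr18:56502957-56503016, plus strand: gagtaacagcatcgttccatcacagtaaag
Kif27, chr17:12294180-12294239, plus strand: acgtaaacaacagttgcagaataaagagat
Tubb4a, for which the files give no coordinates: gcagaccctccatcaataaatgagtcattg
Tubulin genes are close relatives, so the probes of all members were compared with each other. Of 1431 pairs, 0 shared an unbroken run of 15 or more bases, and 2 pairs matched at 30 or more bases when aligned. The closest pair was Tuba4a and Tuba8, with 41 matching bases of 57 aligned. Their most alike stretches of 30 bases are shown with the bases that match in capitals, 22 of 30. Probes were compared only with each other and not with the transcripts of other genes. How far the tubulin signals are separate was therefore not tested.
Tuba4a, bases 4 to 33: GATTATGAgGAAGTaGGcAtcGAcTCcTaT
Tuba8, bases 1 to 30: GATTATGAaGAAGTgGGgActGAtTCgTtT

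In neither model did any kinesin, dynein, dynactin or tubulin gene pass the test, and most differed little between trauma and sham. The largest differences, of Tubb6, Kif5c and Kif15 after percussion trauma, came with a wide spread between arrays. All values are scaled log2 signals, the log2 of the background-corrected signal minus the 75th percentile of the array, and differences are trauma minus the sham of the same model. After rotational trauma 0 of 54 members passed limma's test at an adjusted p of 0.05, where 2 of 17244 genes (0.0116%) did. After percussion trauma 0 members passed, where 0 of all genes (0%) did. The median difference over the members was −0.02 after rotational trauma, against −0.03 over all genes, and 0.03 after percussion trauma, against 0.01 over all genes. Values above 0 were held by 16 members after rotational trauma (29.6% of members, 39.8% of all genes) and by 29 after percussion trauma (53.7%, 52.7% of all genes). These shares follow the scaling, and under the other scalings tried they ran from 14 to 27 members after rotational trauma and from 19 to 32 after percussion trauma.

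Within each model the position on the slide went with the group. Rotational trauma was hybridised in column 2 of its slide and rotational sham in column 1, while percussion trauma was in column 1 of its slide and percussion sham in column 2. Trauma and slide column can therefore not be told apart in either comparison with sham, and a column effect would enter the 2 differences with opposite signs. The share of spots above background was 67.0% to 72.5% in rotational trauma, against 73.1% to 74.1% in rotational sham, and 72.7% to 73.8% in percussion trauma, against 67.6% to 69.4% in percussion sham. Every column 1 array was thus above every column 2 array. The column 1 group had the higher mean in both models for 20 members (37%, all genes 31.7%), and the column 2 group for 7 (13%, all genes 18.8%). Dync2h1, Kif15, Kif18b and Kif27 were the members not above background on all arrays.

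The intervals bound differences between group means, in which trauma and slide column cannot be told apart, and so not a trauma effect alone. The 95% interval lay within a 1.5-fold change either way (0.58 on the log2 scale) for 46 members after rotational trauma (85.2%), where 74% of all genes met this. After percussion trauma it did so for 47 members (87%), against 74.8% of all genes. Differences smaller than 0.1 were seen in 35 members after rotational trauma (64.8%, all genes 53.8%), in 30 after percussion trauma (55.6%, all genes 47.9%) and in both models in 22 (40.7%, all genes 31.2%). Differences past 1.5-fold were held by 0 members after rotational trauma (all genes 4.31%) and by 3 after percussion trauma (5.56%, all genes 4.37%), which were Tubb6, Kif5c and Kif15.

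**Figure D1:**
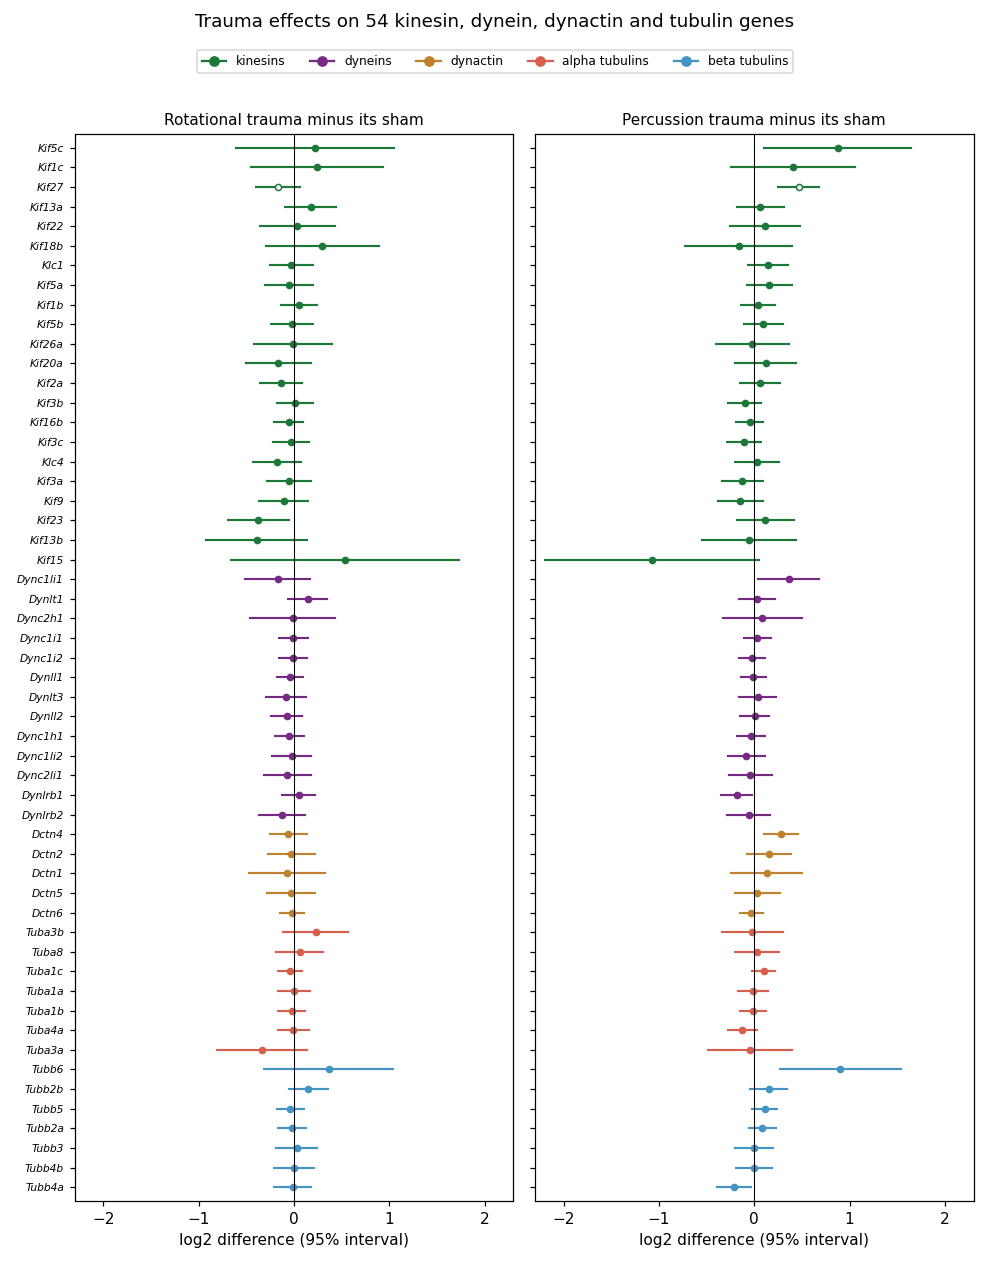
Log2 difference, trauma minus its own sham, of each of the 54 members after rotational trauma (left) and percussion trauma (right), with its 95% interval from limma and with the families in colour. Most points sit close to 0 with short intervals, the open point is Kif27, which was not above background on any percussion sham array, and Tubb6, Kif5c and Kif15 reach furthest after percussion trauma at 0.90, 0.87 and −1.07.

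The size of the differences went with probe signal. The 28 members with a mean scaled signal above 0 had a median size of difference of 0.0279 after rotational trauma and 0.0371 after percussion trauma, and 5835 genes of the same signal range had 0.0524 and 0.0752. No member in that range differed by more than 0.152 after rotational trauma or 0.21 after percussion trauma. In the 14 members at or below a scaled signal of −3 the median size was 0.167 after rotational trauma and 0.118 after percussion trauma, and the largest were 0.539 and 1.07, both of Kif15. The difference between the members and other genes of like signal was not tested, and a probe's signal is not a measure of one gene's abundance against another's.

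**Figure D2:**
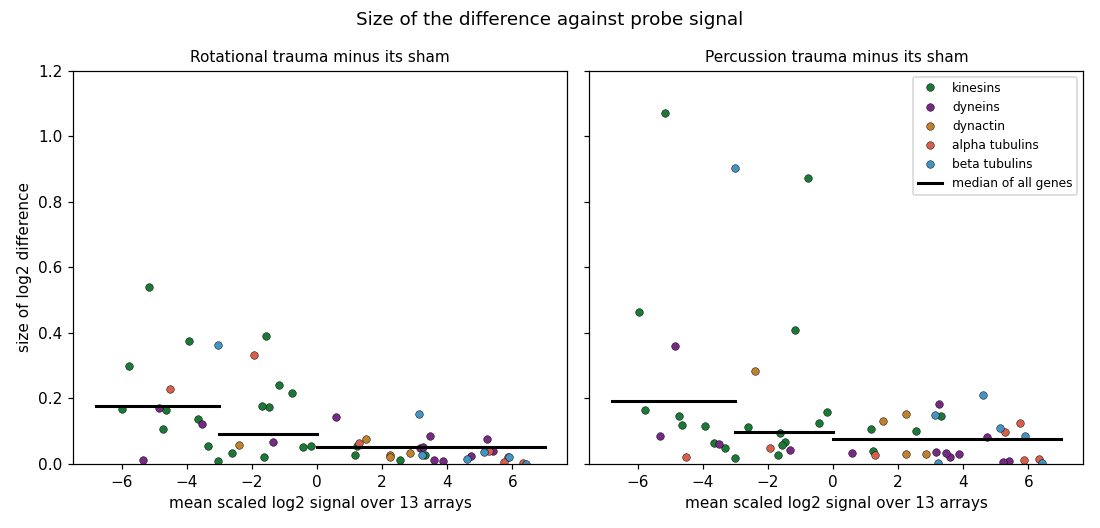
Size of each member's log2 difference against its mean scaled log2 signal over 13 arrays, for rotational trauma (left) and percussion trauma (right). Black bars are the median size over all genes in the same signal range, and the 28 members right of 0 stay at or below 0.21.

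The transport kinesins were the largest group, with 14 of 21 listed kinesins and light chains measured and 0 past the test. These 14 genes include Kif26a, which has no motor activity. Their median difference was −0.02 after rotational trauma (5 higher, 9 lower) and 0.03 after percussion trauma (8 higher, 6 lower). Kinesin-1, the main motor of fast transport out of the cell body, has the heavy chains Kif5a and Kif5c, found mostly in neurons, and the widespread Kif5b. Kif5a, mutated in hereditary forms of motor neuron and axon disease in humans, read −0.06, −0.02 and −0.16 in rotational trauma, against 0.04, −0.06 and −0.05 in rotational sham. It read −0.25, 0.05 and −0.37 in percussion trauma, against −0.48, −0.13, −0.33 and −0.45 in percussion sham. Both pairs of groups overlapped, and the differences were −0.05 (95% interval −0.31 to 0.20) and 0.16 (−0.08 to 0.40). Kif5b differed by −0.02 (−0.24 to 0.20) after rotational trauma and by 0.09 (−0.11 to 0.30) after percussion trauma. The light chain gene Klc1, whose protein ties kinesin-1 to cargo, differed by −0.03 (−0.25 to 0.20) and 0.15 (−0.06 to 0.36).

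Kif5c was the member of kinesin-1 that varied most. Its signal was −0.57, −0.92 and −0.45 in rotational trauma, against −0.24, −1.78 and −0.58 in rotational sham. In percussion trauma it was −0.82, 0.11 and −0.13, against −1.08, −0.79, −1.72 and −1.04 in percussion sham. The groups of both models overlapped, with rotational sham 2 far below the other rotational arrays and percussion trauma 1 just below percussion sham 2. The difference was 0.22 (SE 0.38) after rotational trauma and 0.87 (SE 0.35, 95% interval 0.10 to 1.65) after percussion trauma, a 1.83-fold higher mean that did not pass (limma adjusted p = 0.395). The rotational value was −0.24 without rotational sham 2. Over the 25 settings run for this contrast, its adjusted p ran from 0.167 to 0.685.

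Kif1c, a kinesin of the vesicle-carrying kinesin-3 family and chosen after its values were seen, also had single arrays far from the rest. It read −0.89, −1.36 and −0.99 in rotational trauma, against −0.93, −1.97 and −1.06 in rotational sham. The percussion trauma arrays read −1.45, −1.05 and −0.16, against −1.27, −1.27, −1.27 and −1.38 in percussion sham. Rotational sham 2 was again the lowest of all 13 arrays, and percussion trauma 3 the highest. Its differences of 0.24 (SE 0.32) and 0.41 (SE 0.30, adjusted p = 0.625) did not pass in limma. They were −0.08 without rotational sham 2 and 0.05 without percussion trauma 3.

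By the probe of highest signal, the Kif3 genes and Kif1b were closer to 0. Kinesin-2, which carries cargo in axons and cilia, is represented by Kif3a, Kif3b and Kif3c. Kif3a differed by −0.05 (95% interval −0.28 to 0.18) after rotational trauma and −0.12 (−0.34 to 0.09) after percussion trauma. For Kif3b and Kif3c all 4 differences lay between −0.11 and 0.01. A second, dimmer Kif3b probe gave −0.33 after rotational trauma at an unadjusted p of 0.0394 and 0.14 after percussion trauma, so the 2 probes of this gene did not read alike. Kif1b, another kinesin-3 motor, differed by 0.05 and 0.04.

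Kif13a and Kif13b, kinesin-3 motors of endosome and membrane traffic, were on opposite sides after rotational trauma. Kif13a read −1.22, −1.61 and −1.38 in rotational trauma, against −1.42, −1.81 and −1.51 in rotational sham, a difference of 0.17 (SE 0.12, adjusted p = 0.882). Kif13b read −1.47, −1.05 and −2.24, against −1.04, −1.26 and −1.28 in rotational sham, a difference of −0.39 (SE 0.24, adjusted p = 0.839). Both comparisons overlapped, and rotational trauma 3 alone was far below the other Kif13b values, without which the difference was −0.07. After percussion trauma they differed by 0.07 and −0.06. Klc4, a second kinesin light chain, was lower on every rotational trauma array, at −1.75, −1.89 and −1.64, against −1.52, −1.62 and −1.61 in rotational sham, with a difference of −0.18 (SE 0.11, adjusted p = 0.860). After percussion trauma it differed by 0.03.

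Kinesins of cell division were few and dim on these arrays. Of 12 listed spindle and cytokinesis kinesins 5 were measured, and 6 of 12 proliferation markers were measured, with medians of −0.10 after rotational trauma and −0.04 after percussion trauma and 0 past the test. Kif23, which works at the midbody of dividing cells, read −4.00, −3.93 and −4.34 in rotational trauma, against −3.87, −3.40 and −3.87 in rotational sham. All rotational trauma arrays lay below all sham arrays, with a difference of −0.37 (SE 0.15, limma adjusted p = 0.627), and this was the 1 member at an unadjusted p under 0.05 after rotational trauma (1.85% of members, all genes 6.86%, all genes lower 4.01%). Without rotational sham 2 the difference was −0.22, and without rotational trauma 3 it was −0.25. After percussion trauma Kif23 differed by 0.12, and Kif22, a chromosome-binding kinesin, by 0.03 and 0.11 in the rotational and percussion models.

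Kif15, a spindle kinesin, had the widest spread of all members. It read −5.17, −5.44 and −5.33 in rotational trauma, against −5.33, −6.21 and −6.02 in rotational sham. Percussion trauma read −5.10, −5.68 and −5.42, against −4.01, −3.12, −4.20 and −5.98 in percussion sham. Percussion sham 1, 2 and 3 were well above every other array, while percussion sham 4 was near the bottom, with 1 of its 2 spots above background. The difference after percussion trauma was −1.07 (SE 0.51, 95% interval −2.19 to 0.05, adjusted p = 0.457), and after rotational trauma 0.54 (SE 0.54). Without percussion sham 2 the percussion difference was −0.67, and without percussion sham 4 it was −1.62, while the rotational one was 0.36 without rotational sham 2.

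Of the kinesins that act on microtubule ends, Kif2a, which takes tubulin off the ends and in mice trims axon branches, differed by −0.14 and 0.06 in the rotational and percussion models. Kif18b, of the plus ends of spindle microtubules, was above background on 1 of 3 rotational trauma arrays, against 3 of 3 rotational sham arrays, and on 3 of 3 percussion trauma arrays, against 1 of 4 percussion sham arrays. The probe was kept only through rotational sham and percussion trauma, both in slide column 1, and in each model the less detected group had the higher mean. The differences of Kif18b were 0.30 (SE 0.27) and −0.16 (SE 0.25). The rotational one was 0.02 without rotational trauma 3 and 0.04 without rotational sham 2.

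**Figure D3:**
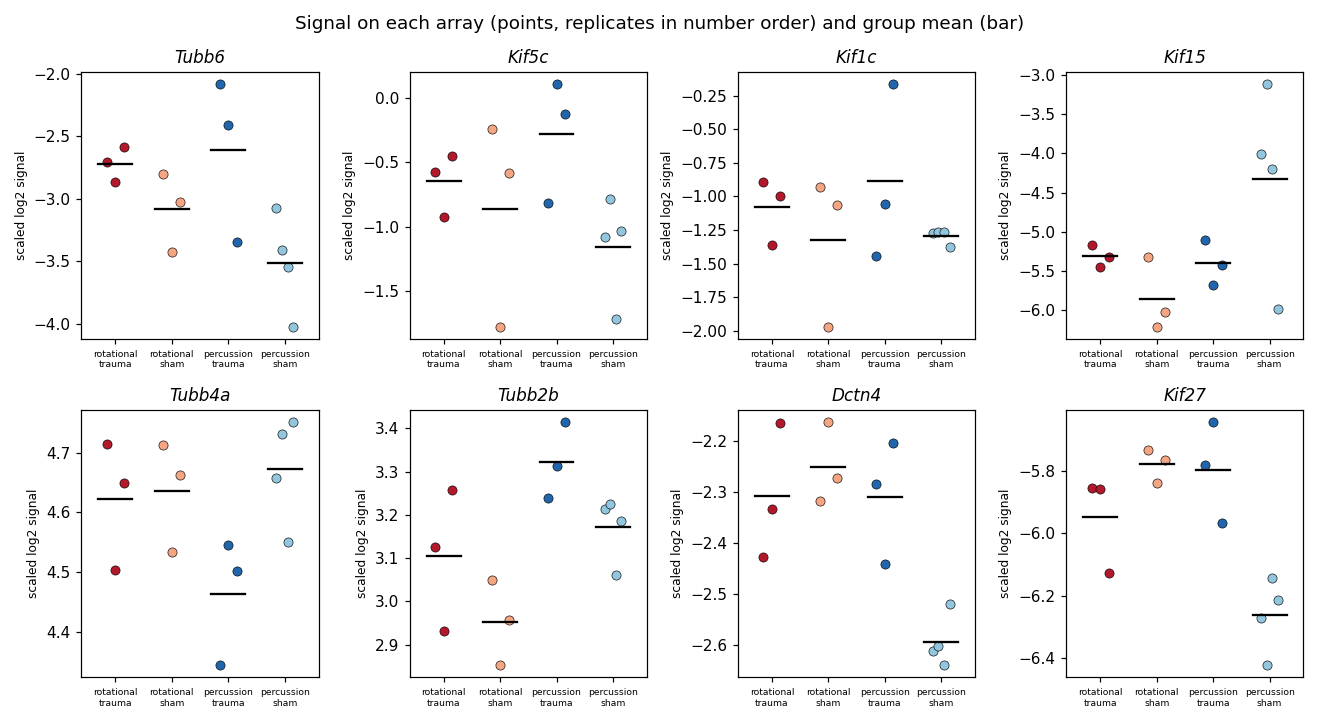
Scaled log2 signal on each array for 8 members, with groups side by side, each array a point in the order of its replicate number and each group mean a bar. The vertical axis differs by gene, and the percussion groups of Tubb6, Kif5c and Kif15 overlap through single arrays, while those of Tubb4a, Tubb2b, Dctn4 and Kif27 do not.

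Of the kinesins of cilia, Kif9 and Kif27 were measured. Kif27, a relative of the Hedgehog pathway kinesin Kif7, was measured at the limit of detection. It read −5.86, −5.86 and −6.13 in rotational trauma, against −5.73, −5.84 and −5.76 in rotational sham. It read −5.78, −5.64 and −5.97 in percussion trauma, against −6.27, −6.42, −6.14 and −6.22 in percussion sham. Neither model's groups overlapped, and the direction was opposite, with trauma lower in the rotational model and higher in the percussion model.

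No fold change of Kif27 is given. The probe was above background on 1 of 3 rotational trauma arrays, 3 of 3 rotational sham arrays, 3 of 3 percussion trauma arrays and 0 of 4 percussion sham arrays. Both groups with full detection were in slide column 1, and this probe stayed in the tested set through them alone. The means were −5.95 in rotational trauma and −5.78 in rotational sham (limma adjusted p = 0.854), and −5.80 in percussion trauma and −6.26 in percussion sham (limma adjusted p = 0.210). The percussion trauma mean was not above the lowest signal well above background on the percussion sham arrays, so the arrays set no lower bound on a difference. Without the filter on dim probes it passed at an adjusted p of 0.0177, where 2979 of 26257 genes (11.3%) passed. Trauma and slide column cannot be told apart in these values. Kif9 differed by −0.11 and −0.15 in the rotational and percussion models, and 6 of 16 ependymal and cilia markers were measured, with medians of −0.23 and 0.18.

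Dynein subunits differed little. Of 11 measured subunits of cytoplasmic dynein 1 and its light chains, 0 passed in either model, and their medians were −0.04 after rotational trauma and −0.01 after percussion trauma. Dync1h1, the heavy chain that carries the motor, read 3.02, 3.13 and 3.09 in rotational trauma, against 3.13, 3.22 and 3.04 in rotational sham. It read 3.17, 3.28 and 3.12 in percussion trauma, against 3.19, 3.19, 3.24 and 3.27 in percussion sham. These groups overlapped throughout, and the differences were −0.05 (95% interval −0.20 to 0.10) and −0.04 (−0.18 to 0.11). The neuronal intermediate chain gene Dync1i1 differed by −0.01 (−0.16 to 0.14) and 0.03 (−0.11 to 0.17). Dynll1, a light chain shared with many other protein complexes, differed by −0.04 (−0.18 to 0.10) and −0.01 (−0.14 to 0.12).

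Dync1li1 had the largest difference among the dyneins in both models. This light intermediate chain, which links dynein to cargo adaptors, read −4.84, −4.91 and −4.98 in rotational trauma, against −4.60, −4.82 and −4.80 in rotational sham. It read −4.99, −4.27 and −4.71 in percussion trauma, against −5.06, −5.19, −4.92 and −4.89 in percussion sham. Rotational trauma lay wholly below its sham, and percussion trauma overlapped its sham through 1 array. The differences were −0.17 (SE 0.16, adjusted p = 0.928) and 0.36 (SE 0.15, adjusted p = 0.394), and the percussion value was 0.17 without percussion trauma 2. Its paralogue Dync1li2 differed by −0.02 and −0.08.

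Dynlrb1, a roadblock light chain, read 3.11, 2.98 and 3.24 in percussion trauma, against 3.29, 3.40, 3.24 and 3.24 in percussion sham. The groups overlapped narrowly at 3.24, and the difference of −0.18 (SE 0.07, adjusted p = 0.397) was −0.12 without percussion trauma 2. After rotational trauma Dynlrb1 differed by 0.05. Its paralogue Dynlrb2 differed by −0.12 and −0.06 in the rotational and percussion models, and the Tctex-type light chain gene Dynlt1 by 0.14 (SE 0.09, adjusted p = 0.856) and 0.03. Dync2h1 and Dync2li1, subunits of the dynein of cilia, differed by −0.01 and −0.07 after rotational trauma and by 0.09 and −0.04 after percussion trauma. The Dync2h1 probe was above background on 1 of 4 percussion sham arrays and on all arrays of the other groups. A second Dync2h1 probe, above background on 8 of 13 arrays, gave 0.24 after rotational trauma and 0.46 after percussion trauma. Neither passed in limma (adjusted p = 0.945 and 0.467), and the 2 probes of this gene did not read alike.

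All 5 measured dynactin subunits had a difference below 0 after rotational trauma, between −0.07 and −0.02, and 4 of 5 had one above 0 after percussion trauma, with 0 past the test. In 4 of 5 the column 1 group was thus the higher one in both models. Dctn1, the subunit that grips microtubules and dynein, read 1.71, 1.56 and 1.68 in rotational trauma, against 1.68, 1.81 and 1.69 in rotational sham. In percussion trauma it read 1.56, 1.86 and 0.93, against 1.17, 1.33, 1.36 and 1.42 in percussion sham. Percussion trauma 3 was the lowest of all 13 arrays and the other percussion trauma arrays were above every percussion sham array. The difference was −0.07 (SE 0.18) and 0.13 (SE 0.17), neither past the test.

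Dctn4, at the pointed end of the dynactin filament, separated the percussion groups. It read −2.43, −2.33 and −2.16 in rotational trauma, against −2.32, −2.16 and −2.27 in rotational sham. It read −2.28, −2.44 and −2.20 in percussion trauma, against −2.61, −2.60, −2.64 and −2.52 in percussion sham. The rotational groups overlapped and all percussion trauma arrays were above all percussion sham arrays. The percussion difference was 0.28 (SE 0.08, 95% interval 0.11 to 0.46, limma adjusted p = 0.264), and the rotational one −0.06 (SE 0.09). A second Dctn4 probe gave 0.26 after percussion trauma and −0.25 after rotational trauma, at unadjusted p of 0.0189 and 0.0319, again with the column 1 group higher in each model. Dctn6, from the same end of the filament, differed by −0.02 and −0.03.

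Of the alpha tubulins, Tuba1a, Tuba1b, Tuba1c and Tuba4a differed by 0.13 or less in both models. Tuba1a, the main alpha tubulin of developing neurons, read 6.42, 6.31 and 6.41 in rotational trauma, against 6.44, 6.31 and 6.39 in rotational sham. It read 6.14, 6.26 and 6.37 in percussion trauma, against 6.20, 6.37, 6.29 and 6.22 in percussion sham. The groups overlapped fully, with differences of −0.00 (95% interval −0.17 to 0.17) and −0.01 (−0.17 to 0.14). These intervals are for trauma and slide column together. Tuba1b differed by −0.02 (−0.17 to 0.12) and −0.01 (−0.15 to 0.12). Tuba4a, an alpha tubulin of adult tissue, differed by −0.01 (−0.17 to 0.16) and −0.13 (SE 0.07, adjusted p = 0.511).

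Tuba1c, chosen after its values were seen, read 5.27, 5.34 and 5.27 in percussion trauma, against 5.13, 5.26, 5.16 and 5.23 in percussion sham. All trauma arrays were above all sham arrays by a small step, with a difference of 0.10 (SE 0.05, adjusted p = 0.519). A second Tuba1c probe, above background on all 13 arrays, did not separate the groups. That probe read 3.97, 4.08 and 3.70 in percussion trauma, against 3.73, 3.90, 3.88 and 3.84 in percussion sham, a difference of 0.08. The dimmer Tuba3a and Tuba3b, alpha tubulins known from testis, went apart after rotational trauma. Tuba3a read −1.95, −1.40 and −2.39 in rotational trauma, against −1.45, −1.60 and −1.70 in rotational sham, a difference of −0.33 (SE 0.21, adjusted p = 0.862) that was −0.09 without rotational trauma 3. Tuba3b differed by 0.23 (SE 0.16, adjusted p = 0.881), and by 0.06 without rotational trauma 1. Both had overlapping groups and differed by −0.05 and −0.02 after percussion trauma, and their 2 probes matched at 31 of 49 aligned bases.

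Among beta tubulins, the neuronal Tubb3 read 3.30, 3.16 and 3.10 in rotational trauma, against 3.27, 2.96 and 3.25 in rotational sham. It read 3.29, 3.21 and 3.31 in percussion trauma, against 3.27, 3.28, 3.14 and 3.39 in percussion sham. The groups overlapped in both models, with differences of 0.03 (95% interval −0.19 to 0.24) and −0.00 (−0.20 to 0.20). Tubb2a, a major beta tubulin of brain, differed by −0.02 (−0.17 to 0.13) and 0.08 (−0.06 to 0.22). The widely used Tubb5 differed by −0.04 (−0.17 to 0.10) and 0.11 (−0.02 to 0.24).

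Tubb2b, a beta tubulin of developing neurons and of glia, was on the higher side in both models. It read 3.13, 2.93 and 3.26 in rotational trauma, against 3.05, 2.85 and 2.96 in rotational sham. It read 3.24, 3.31 and 3.41 in percussion trauma, against 3.21, 3.23, 3.06 and 3.19 in percussion sham. Rotational groups overlapped through rotational trauma 2, while percussion groups were apart by a narrow margin. The mean of both effects was 0.15 (SE 0.06, 95% interval 0.01 to 0.29, adjusted p = 0.521). Tubb4a, used by neurons and by myelinating oligodendrocytes, went the other way after percussion trauma, at 4.34, 4.54 and 4.50, against 4.66, 4.73, 4.55 and 4.75 in percussion sham. No trauma array reached a sham array, and the difference was −0.21 (SE 0.08, adjusted p = 0.376), while after rotational trauma it was −0.01. The 8 oligodendrocyte markers had a median of −0.08 after percussion trauma (2 higher, 6 lower) and 0.36 after rotational trauma (6 higher, 2 lower). Their mean scaled signal was 2.03, 1.59 and 1.71 in rotational trauma, against 1.78, 1.05 and 1.78 in rotational sham. These groups overlapped, and rotational sham 2 was far below the other rotational arrays. The 11 neuronal markers had a median of −0.07 after percussion trauma (4 higher, 7 lower) and −0.01 after rotational trauma (5 higher, 6 lower). The part of either cell type in the Tubb4a value was not tested.

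Tubb6, a beta tubulin found in many tissues outside the nervous system, had the largest difference of any tubulin. It read −2.71, −2.86 and −2.59 in rotational trauma, against −2.80, −3.43 and −3.02 in rotational sham. It read −2.08, −2.41 and −3.34 in percussion trauma, against −3.08, −3.41, −3.55 and −4.03 in percussion sham. The groups overlapped through rotational sham 1 and trauma 2 in 1 model, and through percussion trauma 3, which was lower than percussion sham 1, in the other. The difference was 0.36 (SE 0.31, adjusted p = 0.922) after rotational trauma and 0.90 (SE 0.29, 95% interval 0.27 to 1.54, adjusted p = 0.304) after percussion trauma, a 1.87-fold higher mean. Without rotational sham 2 the rotational value was 0.19. The mean of both effects was 0.63 (SE 0.21, adjusted p = 0.376). Over the 25 settings run for the percussion contrast its adjusted p ran from 0.0629 to 0.583.

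Markers of the meninges and of connective tissue were set beside Tubb6. All 10 listed genes, including the collagen genes Col1a1 and Col1a2 and the matrix gene Ogn, were measured, 9 of them above background on all arrays, and all 10 were higher in both models, with medians of 1.15 after rotational trauma and 1.31 after percussion trauma. None of the 10 passed over all genes, with a smallest adjusted p of 0.141 after rotational trauma and 0.199 after percussion trauma. The mean scaled log2 signal of the 10 genes was 0.13, −0.92 and −0.53 in rotational trauma, against −1.13, −1.95 and −1.67 in rotational sham. It was 0.57, −0.22 and −0.78 in percussion trauma, against −1.11, −1.59, −1.25 and −2.10 in percussion sham. Percussion trauma 1 was highest and percussion sham 4 lowest for this mean and for Tubb6 alike, and rotational sham 2 was the lowest rotational array in each. Other arrays did not match. Rotational trauma 3 was the highest rotational array for Tubb6, and rotational trauma 1 for this mean. Percussion trauma 3 was below percussion sham 1 for Tubb6, and above every percussion sham array for this mean. Trauma and sham did not overlap for this mean in either model, while for Tubb6 they overlapped in both. Choroid plexus markers had 3 of 7 genes measured, with medians of 1.17 after rotational trauma and 1.28 after percussion trauma. The part of tissue at the surface of the brain in the Tubb6 value was not tested.

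**Figure D4:**
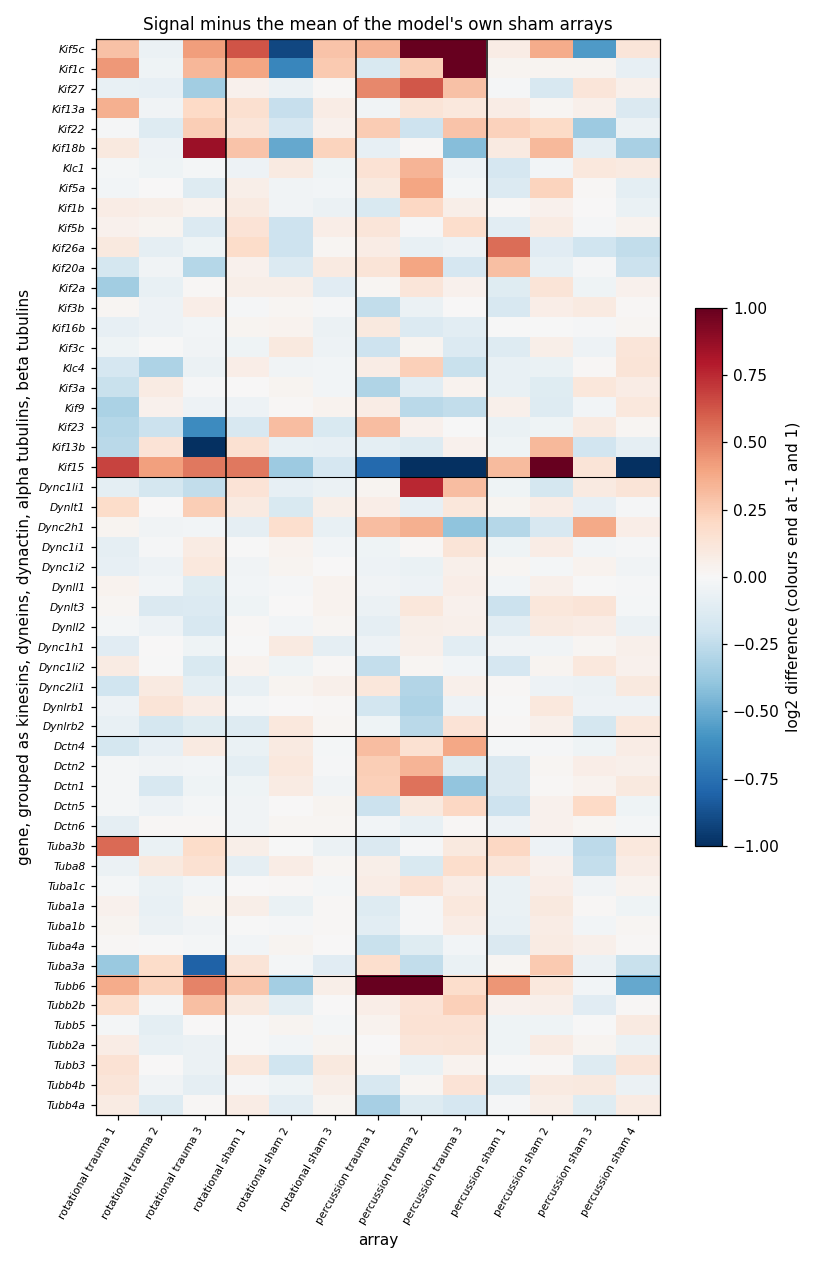
Scaled log2 signal of each member on each of the 13 arrays minus the mean of the sham arrays of the same model, with members grouped by family and arrays by group. Colours end at −1 and 1. The strongest cells belong to Tubb6, Kif5c, Kif1c, Kif15 and Kif13b on some of their arrays, while most dynein and tubulin rows stay near 0.

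With all members side by side, the share with a small p-value was near that of all genes after percussion trauma and below it after rotational trauma. At an unadjusted p under 0.05 there were 7 members after percussion trauma (13%, all genes 11.3%), 5 higher and 2 lower. The higher ones were Kif27, Dctn4, Tubb6, Dync1li1 and Kif5c (9.26% of members, all genes 7.52%), and the lower ones Tubb4a and Dynlrb1 (3.7%, all genes 3.76%). Kif27 had been kept only through the groups where it was detected, so the count is also given over the 50 members above background on all arrays, of which 4 were higher (8%, 6.62% of 14961 such genes) and 2 lower (4%, 3.84%). After percussion trauma the groups did not overlap with trauma above sham for 4 members, Dctn4, Kif27, Tuba1c and Tubb2b (7.41%, all genes 5.9%), and with trauma below sham for 1, Tubb4a (1.85%, all genes 3.83%). After rotational trauma 0 members had all trauma arrays above sham (all genes 4.85%) and 4 had them below, Kif23, Kif27, Klc4 and Dync1li1 (7.41%, all genes 10.6%). Among the 50 members above background on all arrays these non-overlapping counts, with Kif27 left out, were 3 above (6%, 5.37% of such genes) and 1 below (2%, 4.09%) after percussion trauma, and 0 above (0%, 5.09%) and 3 below (6%, 9.9%) after rotational trauma. No member had trauma wholly above sham in both models (0 of 54, all genes 0.557%) or wholly below in both (0 of 54, all genes 0.273%).

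For the mean of both effects 0 members passed limma (all genes 0%), and the members at an unadjusted p under 0.05 were Tubb6 and Tubb2b, both higher (3.7%, all genes 8.92%, all genes higher 5.1%), and 0 lower (all genes 3.82%). Past 1.5-fold was Tubb6 alone (1.85%, all genes 2.62%), 40 members were under 0.1 (74.1%, all genes 64.6%), and the 95% interval lay within 1.5-fold for 49 (90.7%, all genes 85.7%). The next largest mean effect was that of Kif5c, 0.55 (SE 0.26, adjusted p = 0.583). On the lower side the smallest p-values were those of Tubb4a with −0.11, Kif9 with −0.13, Kif13b with −0.22 and Tuba4a with −0.07, at adjusted p of 0.642, 0.705, 0.763 and 0.774.

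For the percussion effect minus the rotational effect 0 members passed (all genes 0%), and 4 had an unadjusted p under 0.05, all with the higher percussion effect (7.41%, all genes 8.56%, all genes higher 6.58%), and 0 the lower one (all genes 1.98%). Of the 50 members above background on all arrays 3 did (6%, 5.41% of such genes): Dctn4 with 0.34 (SE 0.12, adjusted p = 0.468), Dync1li1 with 0.53 (SE 0.21, adjusted p = 0.526) and Kif23 with 0.49 (SE 0.20, adjusted p = 0.530). The fourth was Kif27, given without a size because it lay at the limit of detection. On the other side stood Kif15 with −1.61 (SE 0.75, adjusted p = 0.587). The difference was above 0 for 32 members (59.3%, all genes 57.6%), under 0.1 in size for 24 (44.4%, all genes 38.4%) and past 1.5-fold for 3 (5.56%, all genes 6.87%), and the 95% interval lay within 1.5-fold for 38 (70.4%, all genes 56.4%). The arrays of a model shared 1 slide, so slide and model cannot be told apart here, and because trauma and sham had opposite slide columns in the 2 models, the difference also contrasts column 1 with column 2. A column effect alike on both slides would enter it from both models and cancel in the mean of both effects. Kif26a, a kinesin without motor activity, had a step between the 2 models, and so between their slides, in trauma and sham alike. It read −2.50, −2.65 and −2.63 in percussion trauma and −2.02, −2.69, −2.77 and −2.82 in percussion sham, while the 6 rotational arrays lay between −3.75 and −3.35. Its differences from its own sham were −0.02 and −0.01 in the percussion and rotational models.

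**Figure D5:**
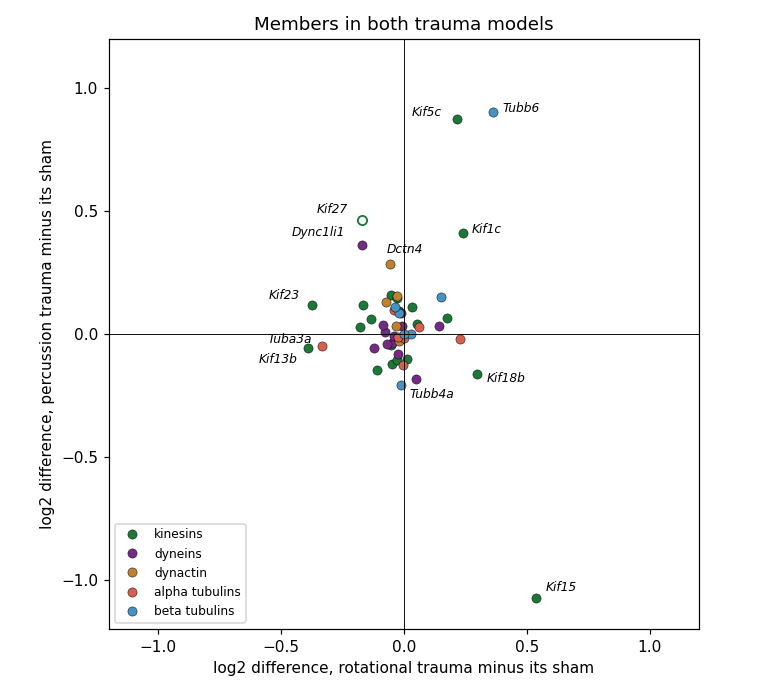
Log2 difference after percussion trauma (vertical) against that after rotational trauma (horizontal) for each of the 54 members, coloured by family, with the members furthest from 0 named and Kif27, not above background in percussion sham, as an open point. Most lie within 0.2 of 0 on both axes, Tubb6, Kif5c and Kif1c lie on the higher side of both, and Kif15 lies at 0.54 and −1.07.

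Genes that work with the motors were described in the same way. Of 36 listed motor adaptors and regulators all 36 were measured, 0 passed in either model, and their medians were −0.05 after rotational trauma (10 higher, 26 lower) and 0.06 after percussion trauma (22 higher, 14 lower). Both medians had the column 1 group on the higher side, and trauma and slide column cannot be told apart here. At limma's unadjusted p under 0.05 after percussion trauma 6 of 36 were higher (all genes 7.52%) and 1 lower (all genes 3.76%). After rotational trauma 0 were higher (all genes 2.85%) and 2 lower (all genes 4.01%). Clstn1, which encodes a membrane cargo adaptor of kinesin light chains, read −0.35, 0.17 and 0.75 in percussion trauma, against −1.02, −0.62, −0.50 and −0.54 in percussion sham. The groups did not overlap and the difference was 0.86 (adjusted p = 0.233), against −0.02 after rotational trauma. For the mean of both effects Nde1, a dynein regulator, had 0.21 (adjusted p = 0.400), Lrrk2, a kinase that binds microtubules, −0.19 (adjusted p = 0.352), and Hook3, which couples dynein to cargo, −0.22 (adjusted p = 0.516).

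Of 62 listed microtubule-associated proteins, folding factors and tubulin-modifying enzymes 59 were measured, with 0 past the test and medians of −0.03 after rotational trauma and −0.00 after percussion trauma. Mapt, which encodes tau, differed by −0.08 and −0.16 in the rotational and percussion models, with an adjusted p of 0.588 for their mean. Map1s and the plus-end protein gene Mapre1 had mean effects of −0.17 (adjusted p = 0.489) and 0.06 (adjusted p = 0.753). Tube1, which encodes the centriolar epsilon tubulin, read −5.27, −3.46 and −5.05 in rotational trauma, against −5.25, −6.04 and −5.60 in rotational sham. Rotational trauma 2 stood alone above the rest, and the difference of 1.03 (adjusted p = 0.650) did not pass.

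Where a gene had several probes, they did not always point the same way. For 12 members 2 or more probes were above background, and all probes of a gene had 1 sign in 8 of them after rotational trauma and in 9 after percussion trauma. A second probe of Kif16b, a motor of early endosomes, gave −0.45 after rotational trauma at an unadjusted p of 0.0247, where the brighter probe gave −0.05.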

How the data were processed

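RNA of 13 frontal cortex samples was hybridised to single-colour arrays, 1 per sample. Per the file headers, spots were read by the authors with Agilent Feature Extraction 10.5.1.1, whose processed signal is an intensity after background subtraction. A table of normalised log2 values that the authors deposited was used as an alternative, and each of its columns correlated best with its own array. Replicates are labelled as separate samples, so p-values measure the spread between these samples.

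Of 62976 spots, 4259 controls were left out. The log2 processed signal was scaled to each array's 75th percentile over the other 58717 spots, outlier spots were set missing, and spots of a probe were averaged. A probe stayed in if its signal was well above background on all arrays of 1 or more groups (20004 probes), and the probe of highest mean stood for a gene (17244 genes). Between 67.0% and 72.5% of spots were above background on slide column 2 and between 72.7% and 74.1% on column 1, 0 probes were saturated, and the small number of arrays limits precision. A GRCr8 gene table served to update names, through the accession for 18006 probes, the symbol for 2654 and a synonym for 559, while 9148 probes have the array's own name. In the files Tubb4a is Tubb4 and Tubb4b is Tubb2c.

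All arrays entered 1 linear model with group means (limma 3.58.1 in R 4.3.3, with 9 residual and 2.22 prior degrees of freedom), with two-sided contrasts and Benjamini-Hochberg adjustment over all genes. It was tested on simulated data. Slides were 1 per model, so slide needs no further term. Same-numbered trauma and sham arrays deviated together at r between −0.02 and 0.28, not above 0.1 in every pair, so the numbers were not taken as pairs.

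The members and gene lists were chosen with earlier results of these data known. Named members are the 4 of smallest p per direction and contrast, a set of landmark genes, and the extremes of each role list, and others are said to be chosen after their values were seen or are given as further members of a family. Python 3.11.15 with matplotlib 3.10.9 drew the figures.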

Additional observations from a re-analysis of the deposited data

Results flagged for a closer look

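In the group of 4 percussion sham arrays, 54 members were examined for a single array far from the others, and 2 passed Dixon's 95% critical ratio of gap to range, where chance gives about 1 group in 20. Kif1c had −1.38 in percussion sham 4 against −1.27 in each of the other percussion sham arrays, a small gap beside a very narrow spread. Kif26a had −2.02 in percussion sham 1 against −2.82 to −2.69 in the others. The groups of 3 arrays were too small for this check.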

How the results depend on the processing

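Besides the settings reported above, 25 alternatives were run, and 0 members passed under any of them except without the filter on dim probes. Without that filter 1 member passed after rotational trauma (Kif2b), 5 after percussion trauma (Dctn3, Kif24, Kif27, Kif2b and Kif4a) and 6 for the difference (the same 5 and Tubal3). All of these but Kif27 were above background on 0 of 13 arrays, and 1.36%, 11.3% and 14.4% of 26257 genes passed these contrasts then. The median over the members was of about the size of its spread between arrays (SD 0.0293), and its sign is not settled: after percussion trauma it was −0.0411 scaled by the array median and −0.0136 without the filter, and for the mean of both it was −0.0470 scaled by the array median. For the percussion effect minus the rotational effect it was 0.0855 with normexp, −0.0176 with the array median, 0.0723 over all probes of a gene and −0.0040 with the percentile over averaged probes, an alternative chosen after seeing the data; the cause was not tested. Leaving out each array in turn, 0 members passed, and the median ran from −0.0347 to −0.0205 after rotational trauma, from −0.0110 (without percussion trauma 3) to 0.0408 after percussion trauma, from −0.0200 to 0.0073 for the mean and from −0.0079 (without percussion trauma 3) to 0.0566 for the difference. Members at an unadjusted p under 0.05 ranged from 0 to 7 after rotational trauma (7 without rotational trauma 2, 5 without the filter) and from 4 to 12 after percussion trauma (4 without percussion trauma 2, 12 without the filter). Without Tubb6, Kif5c, Kif1c and Kif15, also chosen after seeing the data, the medians were −0.0272 and 0.0166. With the replicate number as a replicate block the medians were −0.0234 after rotational trauma, 0.0175 after percussion trauma, −0.0124 for the mean and 0.0419 for the difference, with 0 members passing in each, and the numbers are not taken as pairs. Slide as a separate block was not run, since each model has its own slide and the group means take it up. The counts over members above background on all arrays, given above, were also added after seeing the data.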
